A study of Mus musculus with 6 samples.

Results

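The genes described here are the chemokine ligands and chemokine receptors of mouse cardiac fibroblasts treated with TGFβ. They were taken by name from the deposited gene table: every row named as a Ccl, Cxcl, Cx3cl or Xcl ligand, a Ccr, Cxcr or Cx3cr receptor, or an Ackr atypical receptor. This gave 45 of 25140 genes, 30 ligands and 15 receptors. GENCODE M21 lists 60 protein-coding genes whose names fit the rule, and the other 15 were not analysed here. Primary cardiac fibroblasts from the adult heart of C57BL/6 mice, at passage 1, had been grown in DMEM with 25 mM glucose and 10% FBS. FBS was lowered to 1% before treatment, for 16 h by the sample labels and for 24 h by the study's methods. It stayed at 1% during treatment. One group of 3 libraries then received vehicle and the other group of 3 libraries 10 ng/mL TGFβ, both for 24 h. The study calls its libraries biological replicates, but whether the cultures came from separate animals is not stated in the sources used here, so p-values measure the spread between these libraries. The study's methods name the RNA-seq cells as cardiac fibroblasts and its results name them as mouse embryonic fibroblasts. Polyadenylated RNA was sequenced, and 27851677 to 31072338 reads per library were counted on genes.

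Chemokines are small secreted proteins that attract leukocytes along concentration gradients by binding receptors coupled to inhibitory G proteins. CXC ligands that carry a Glu-Leu-Arg motif mainly draw neutrophils, many CC ligands draw monocytes, eosinophils or lymphocytes, and atypical receptors bind ligands without classical G protein signalling and clear them. Fibroblasts of the heart are known sources of chemokines after injury, and many chemokine genes are induced by NF-kB downstream of IL-1, TNF and Toll-like receptors. TGFβ drives fibroblasts towards the contractile, matrix-producing myofibroblast state.

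TGFβ lowered most of the abundant inflammatory ligands and raised 2, Ccl17 and Cx3cl1. Of the 45 genes, 29 had enough counts to be tested (22 ligands and 7 receptors). With TGFβ, 13 of the 29 were lower and 2 were higher at an adjusted p under 0.05 (edgeR's quasi-likelihood test, Benjamini-Hochberg adjustment over all 14334 genes tested), and 14 did not pass. Over all genes tested, 40.7% passed in either direction, 20.1% lower and 20.5% higher. The treatment therefore moved a large share of the transcriptome, and the share of chemokine genes that passed in either direction, 51.7%, lay only somewhat above that background. The sizes were larger: 13 of the 29 genes passed with a log2 fold change beyond 1, 11 of them lower, against 6.77% of all genes tested. Genes past that size leaned lower over the whole table too, with 625 lower and 346 higher. The median log2 fold change (TGFβ over vehicle, here and below) was -1.01 over the 22 ligands and -0.00 over all genes tested. The vehicle and TGFβ libraries did not overlap in 16 of the 29 genes, or 55.2%, beside 53.3% of all genes. The filter on low counts let 3 genes (Ccl11, Cxcl2 and Cxcl3) pass through their vehicle libraries alone, so these counts describe the genes and are no test of the family.

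**Figure D1:**
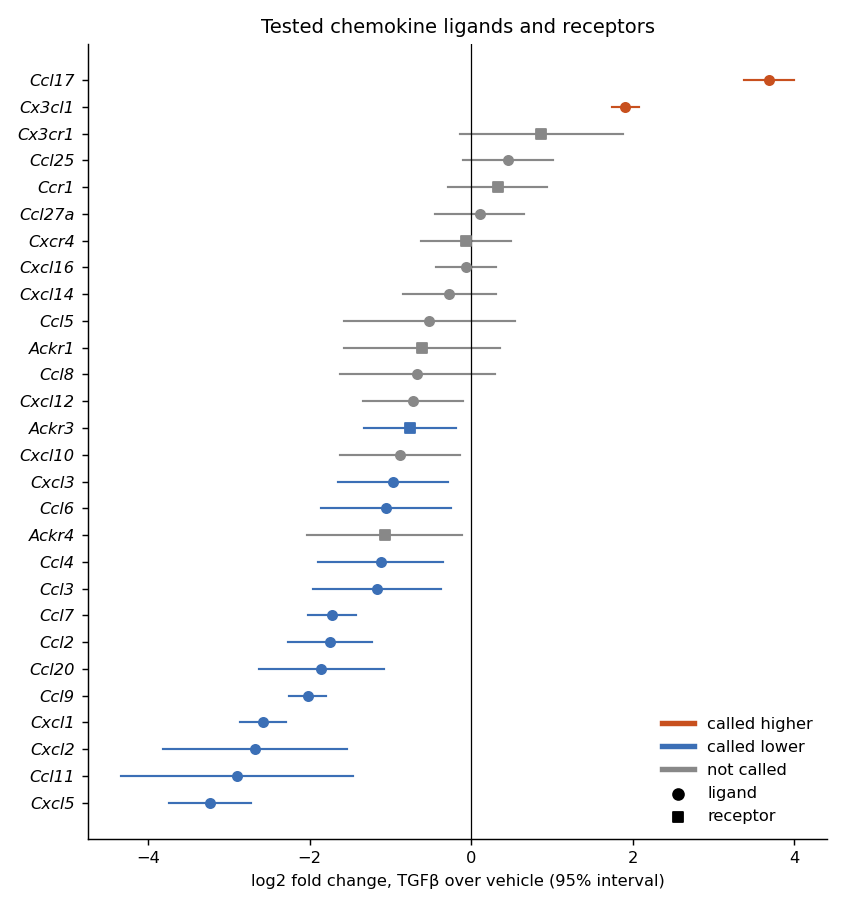
The log2 fold change of the tested genes reported here, TGFβ over vehicle, with its 95% interval (edgeR, 3 libraries per group). Circles are ligands and squares receptors. Ccl17 and Cx3cl1 stand alone on the right at 3.68 and 1.91, Cxcl5 lies lowest at -3.23, and the only receptor called lower is Ackr3 at -0.76.

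The libraries are written Va, Vb and Vc for vehicle and Ta, Tb and Tc for TGFβ, in the order of the table's columns, which carry no replicate number. Levels are in CPM, reads of a gene per library, put on a shared scale of total reads by TMM. In most chemokine genes Vc and Tc were the highest libraries of their groups: Vc in 23 of the 29 tested genes (79.3%, against 34.8% of all genes) and Tc in 22 (75.9%, against 37.0%). The summed level of the leukocyte markers, most of it Lyz2, was also highest in those libraries. It was 270 to 389 CPM with vehicle and 232 to 347 CPM with TGFβ. Of 10 tested markers 1 was called lower (Cd14) and 0 higher with edgeR, beside 20.1% lower and 20.5% higher over all genes tested. The number lower was 1 with DESeq2 and 0 with limma-voom. Cd3e and S100a9 were not found. Endothelial markers summed to 476 to 744 CPM with vehicle and 438 to 609 CPM with TGFβ, again highest in Vc and Tc. None of the 9 passed with edgeR, either adjusted or at an unadjusted p under 0.05 (0 of 9), nor with DESeq2 or limma-voom. The fibroblast markers, with Col1a1, Col3a1, Dcn and Pdgfra among them, were high in every library and summed to 53481 to 63310 CPM with vehicle and to 49902 to 55763 CPM with TGFβ. Of these 10 markers 8 were called lower and 0 higher with edgeR (median log2 fold change -0.44), beside 20.1% lower and 20.5% higher over all genes. At an unadjusted p under 0.05, with DESeq2 and with limma-voom, 8 were lower and 1 higher. Pericyte and smooth muscle markers summed to 250 to 284 CPM with vehicle and to 135 to 165 CPM with TGFβ, without overlap. Of the 6 tested, Notch3 was called lower (-1.85) and Cspg4 higher (1.45). The fibroblast and pericyte sums were also highest in Vc and Tc. So was that of lymphatic endothelial markers, at 46.0 to 71.2 CPM with vehicle and 40.2 to 59.7 CPM with TGFβ. The sums of cardiomyocyte and mesothelial markers were highest in Va and Ta, and that of dendritic cell markers in Va and Tc. The part of other cells in the chemokine levels was not tested, and in bulk RNA fewer cells of a type and less RNA per cell cannot be told apart.

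All 4 neutrophil-attracting CXC ligands tested fell, Cxcl5, Cxcl2 and Cxcl1 by log2 fold changes of -3.23 to -2.57 and Cxcl3 by -0.97. Over all genes tested, 20.1% were called lower. Cxcl2 and Cxcl3 passed the filter on low counts through their vehicle libraries alone. The count of 4 is therefore no test of these ligands as a group. The genes Cxcl5, Cxcl3, Cxcl1 and Cxcl2 lie in this order on chromosome 5, plus strand, from 90759360 to 90905938 of GRCm38 (mm10). Stretches of the promoters of 3 of them are shown because they share a kB-like motif, GGNNNTTCC, searched on both strands and printed in capitals. Cxcl5 had no promoter in the RefSeq set used here, so its promoter was not searched. Each sequence is the 130 bases before the RefSeq start (GRCm38.p6, plus strand), Cxcl1 at chr5:90891115-90891244, Cxcl2 at chr5:90903769-90903898 and Cxcl3 at chr5:90785971-90786100.
Cxcl1: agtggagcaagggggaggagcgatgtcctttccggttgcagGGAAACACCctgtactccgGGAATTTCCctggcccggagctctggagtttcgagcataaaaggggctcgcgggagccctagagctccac
Cxcl2: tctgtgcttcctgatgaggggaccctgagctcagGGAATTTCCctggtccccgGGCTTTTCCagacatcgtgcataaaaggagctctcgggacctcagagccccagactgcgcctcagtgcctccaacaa
Cxcl3: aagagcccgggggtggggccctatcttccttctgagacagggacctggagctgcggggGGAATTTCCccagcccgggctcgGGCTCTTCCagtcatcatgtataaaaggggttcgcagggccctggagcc
The first base of the motif lay at -89 and -70 in Cxcl1, at -96 and -77 in Cxcl2 and at -72 and -49 in Cxcl3, counted from the start. In Cxcl2, a CAGACA that begins at -69 overlaps the second match by 1 base. GGNNNTTCC stood in 15 of 36 promoters of 33 chemokine genes (41.7%, window of 250 bases before to 50 after the start), and in 18.5% of all 32851 RefSeq promoters. Among called genes with a promoter in that set, it stood in 5 of 8 that were lower (Ccl20, Ccl9, Cxcl1, Cxcl2 and Cxcl3) and in 1 of 2 that were higher (Cx3cl1). It also stood in 4 of 14 promoters of genes tested but not called, and in 5 of 12 of genes not tested. The lower genes Ccl2, Ccl4, Ccl7, Ccl11 and Cxcl5 had no promoter there and were not searched. A match is a description of the letters and no evidence of binding.

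Cxcl5, a neutrophil attractant also known as LIX in the mouse, (ENSMUSG00000029371) was among the highest ligands per kilobase with vehicle. Its level was 428, 538 and 590 CPM in Va, Vb and Vc and 45.9, 44.9 and 74.5 CPM in Ta, Tb and Tc. Every vehicle library lay far above every TGFβ library, which made a log2 fold change of -3.23 with a standard error (SE) of 0.22 and an adjusted p of 3.69e-05 (edgeR). Cxcl1, also called KC, was at 80.1, 76.4 and 86.1 CPM with vehicle and at 14.9, 10.6 and 15.3 CPM with TGFβ. The groups were again far apart (log2 fold change -2.57, SE = 0.12, adjusted p = 8.73e-06). Cxcl2, or MIP-2, was at only 1.29, 1.69 and 3.52 CPM with vehicle and at 0.219, 0.286 and 0.491 CPM with TGFβ, a log2 fold change of -2.68 with a wide standard error of 0.49 (adjusted p = 0.00382). Cxcl3 was near 1 CPM, at 0.691, 0.877 and 1.04 CPM with vehicle and 0.512, 0.287 and 0.526 CPM with TGFβ. Its groups did not overlap, but its call (log2 fold change -0.97, adjusted p = 0.0322) was lost with DESeq2 (adjusted p = 0.0944), without any one of Vb, Vc, Ta or Tb, and without Vc and Tc together. The 4 ligands summed to 603 ± 86.6 CPM in vehicle libraries and to 69.5 ± 18.7 CPM in TGFβ libraries (SD, n = 3 each), 8.67 times lower. The fall was uneven, as the ratio of Cxcl5 to Cxcl1 was 5.34 to 7.04 with vehicle and 3.08 to 4.87 with TGFβ. Their receptors Cxcr1 and Cxcr2 were not analysed here.

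**Figure D2:**
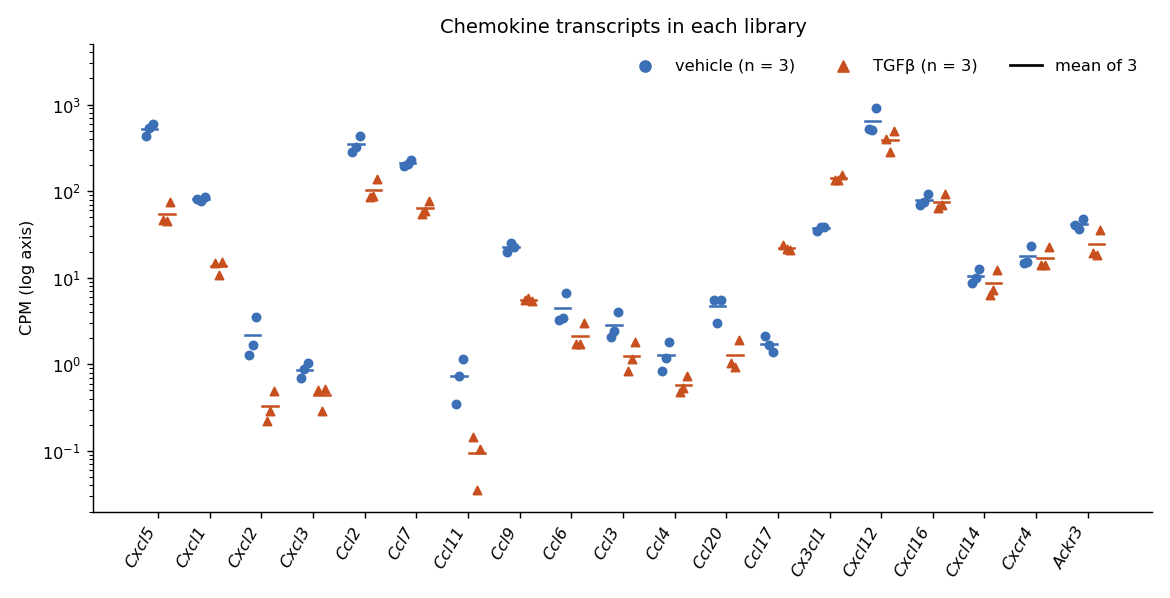
CPM on a log axis of the 15 called genes and of Cxcl12, Cxcl16, Cxcl14 and Cxcr4 in each library, with circles for vehicle, triangles for TGFβ and bars for the mean of 3 libraries. The 3 TGFβ points of Cxcl5 (44.9 to 74.5 CPM) sit far below its vehicle points, while the points of Cxcl16 and Cxcr4 overlap between groups.

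The monocyte chemoattractants fell as well, by a smaller factor. Ccl2, Ccl7, Ccl8 and Ccl12 together went from 567 ± 100.4 CPM to 172 ± 44.3 CPM (SD, n = 3), 3.29 times lower. Ccl2, Ccl7, Ccl11, Ccl12 and Ccl8 lie together on chromosome 11, from 82035571 to 82116799. Ccl2 (ENSMUSG00000035385), or MCP-1, the main ligand of Ccr2, was at 282, 324 and 437 CPM with vehicle and at 85.9, 86.8 and 138 CPM with TGFβ. The highest TGFβ library, Tc, was still below the lowest vehicle library (log2 fold change -1.75, SE = 0.22, adjusted p = 0.000695). Ccl7, or MCP-3, was at 196, 208 and 230 CPM with vehicle and at 55.1, 58.6 and 77.8 CPM with TGFβ, a log2 fold change of -1.73 (adjusted p = 5.82e-05, SE = 0.13). Ccl2 and Ccl7 kept nearly the same ratio to each other in both groups, 1.44 to 1.90 with vehicle and 1.48 to 1.77 with TGFβ. Per kilobase of exon, where levels of different genes can be compared, Ccl2 (305 CPM per kb), Cxcl5 (278) and Ccl7 (264) were the highest chemokine transcripts with vehicle, and they did not differ from each other beyond their spread. Ccl8, or MCP-2, was at 4.34, 7.86 and 10.8 CPM with vehicle and 2.60, 4.40 and 7.40 CPM with TGFβ, where the groups overlapped and the test did not pass (log2 fold change -0.67, 95% interval -1.62 to 0.29, adjusted p = 0.238). Ccl12 was below the filter, with 45 counts in all with vehicle and 15 with TGFβ. The receptor Ccr2 had 0 counts with vehicle and 1 with TGFβ.

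Ccl11, or eotaxin, which draws eosinophils through Ccr3, was low in every library. It passed the filter on low counts through its vehicle libraries alone. Its level was 0.346, 0.742 and 1.14 CPM with vehicle and 0.146, 0.0358 and 0.105 CPM with TGFβ. The groups were apart, and the log2 fold change of -2.89 had the widest standard error of the called genes, 0.62 (adjusted p = 0.00766). Ccl24, or eotaxin-2, had 5 counts with vehicle and 0 with TGFβ, and Ccr3 had 5 and 5 counts.

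The MIP-1 family and RANTES ligands lie in a second cluster on chromosome 11, from 83525778 to 83664683. Of these 5 ligands 4 were called lower, beside 20.1% lower over all genes tested, and only the call of Ccl9 held in every alternative fit. Ccl9, or MIP-1 gamma, had the highest level of these per kilobase of exon (7.41 CPM per kb with vehicle). It was at 20.05, 25.3 and 22.4 CPM with vehicle and at 5.48, 5.80 and 5.33 CPM with TGFβ. The libraries within each group lay close together, and the log2 fold change was -2.03 (adjusted p = 9.87e-06, SE = 0.10). Ccl3, or MIP-1 alpha, was at 2.07, 2.43 and 4.02 CPM with vehicle and at 0.841, 1.15 and 1.79 CPM with TGFβ (log2 fold change -1.17, SE = 0.34, adjusted p = 0.0273). Ccl4, or MIP-1 beta, was at 0.848, 1.18 and 1.81 CPM with vehicle and at 0.475, 0.537 and 0.737 CPM with TGFβ (log2 fold change -1.12, SE = 0.33, adjusted p = 0.0300). Ccl6 was at 3.24, 3.44 and 6.74 CPM with vehicle and at 1.72, 1.72 and 2.98 CPM with TGFβ (log2 fold change -1.06, SE = 0.35, adjusted p = 0.0417). In Ccl3, Ccl4 and Ccl6 the groups did not overlap, but Vc stood above Va and Vb, and these calls are the less firm ones. Ccl6, with 586 counts in all, also overlaps the opposite-strand gene E230016K23Rik (140 counts), which was itself called lower (log2 fold change -2.80, adjusted p = 0.000122), so reads could be shared. The calls of Ccl3, Ccl4 and Ccl6 were each lost without Vc (adjusted p = 0.0715, 0.0775 and 0.0993), without Ta (0.0922, 0.102 and 0.135) and without Tb (0.0849, 0.0899 and 0.127), that of Ccl4 also without Vb (0.0598) and that of Ccl6 with limma-voom (0.0562). Ccl5, or RANTES, had a log2 fold change of -0.52 (95% interval -1.58 to 0.54, adjusted p = 0.403) at under 1 CPM. Ccr1, a receptor of several of them, did not pass and had a log2 fold change of 0.33 (95% interval -0.28 to 0.94, adjusted p = 0.358), at 0.471, 0.607 and 0.603 CPM with vehicle and 0.585, 0.609 and 0.912 CPM with TGFβ.

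Ccl20, which draws cells bearing Ccr6, lies on chromosome 1 (83116766 to 83119167). It was at 5.47, 3.03 and 5.60 CPM with vehicle and at 1.02, 0.931 and 1.93 CPM with TGFβ. No library overlapped between groups (log2 fold change -1.85, SE = 0.33, adjusted p = 0.00355). The receptor Ccr6 was not analysed here.

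The 2 ligands that rose are neighbours on the plus strand of chromosome 8, Cx3cl1 (94772009 to 94782427) and Ccl17 (94810453 to 94812036), with 28.0 kb between them. The 200 bases before their RefSeq starts are shown because these genes went against the rest. Both stretches are from GRCm38.p6, plus strand, Ccl17 at chr8:94810253-94810452 and Cx3cl1 at chr8:94771980-94772179. Capitals mark CAGACA, a SMAD-type motif, and TTCNNNGAA, a STAT-type motif, in Ccl17, and GGNNNTTCC in Cx3cl1.
Ccl17: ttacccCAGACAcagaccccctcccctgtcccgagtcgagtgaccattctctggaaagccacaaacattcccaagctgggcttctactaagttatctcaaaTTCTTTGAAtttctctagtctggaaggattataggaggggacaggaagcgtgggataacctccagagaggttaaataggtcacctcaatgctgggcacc
Cx3cl1: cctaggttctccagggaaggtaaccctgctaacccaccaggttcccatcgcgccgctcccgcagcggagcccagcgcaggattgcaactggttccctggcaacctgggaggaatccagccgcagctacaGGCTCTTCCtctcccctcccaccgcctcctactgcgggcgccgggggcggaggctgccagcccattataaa
In Ccl17, CAGACA began at -194 and the STAT-type motif at -99, and in Cx3cl1 the kB-like motif began at -71. These positions are counted from the RefSeq start. Most of the Cx3cl1 stretch, its motif included, lies after the start of the gene in GENCODE (94772009). CAGACA stood in 22.2% of the chemokine promoters and 21.04% of all promoters, and TTCNNNGAA in 5.56% and 8.30%. The AP-1 motif TGANTCA stood in 19.4% and 7.81%, and the SMAD palindrome GTCTAGAC in 0 of the 36 chemokine promoters and 0.213% of all promoters.

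Ccl17 (ENSMUSG00000031780), or TARC, attracts T cells and other cells bearing Ccr4. Its counts were 67, 50 and 41 with vehicle and 658, 603 and 600 with TGFβ, or 2.11, 1.69 and 1.37 CPM and 24.1, 21.6 and 21.1 CPM. The 3 TGFβ libraries lay far above the 3 vehicle libraries, with a log2 fold change of 3.68 (adjusted p = 3.89e-06, SE = 0.13). Unlike most of the family, Ccl17 was not highest in Vc or Tc. The dendritic cell markers, a cell type known for Ccl17, summed to 10.1 to 11.6 CPM with vehicle and to 8.30 to 9.33 CPM with TGFβ. Of the 4 tested, 2 (Zbtb46 and H2-Ab1) were called lower with edgeR, beside 20.1% lower over all genes. The number was 2 with limma-voom and 0 with DESeq2. Cd209a and Xcr1 were not found, and Flt3 was at 0.0105 CPM with vehicle and at 0 with TGFβ. The receptor Ccr4 had 0 counts with vehicle and 1 with TGFβ. Ccl22, the other ligand of Ccr4, was not analysed here.

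Cx3cl1 (ENSMUSG00000031778), or fractalkine, is made as a membrane-bound adhesion molecule and shed as a soluble attractant. It was at 34.6, 38.5 and 38.9 CPM with vehicle and at 133, 134 and 153 CPM with TGFβ. The libraries within a group were close together, and the log2 fold change was 1.91 (adjusted p = 4.48e-06, SE = 0.07). Its receptor Cx3cr1, carried by macrophages and monocytes, was at 1.26, 0.809 and 2.05 CPM with vehicle and 1.46, 2.08 and 3.96 CPM with TGFβ, where the groups overlapped (log2 fold change 0.87, 95% interval -0.14 to 1.88, adjusted p = 0.149). Cx3cr1 spans part of Wdr48 on the opposite strand, a gene with 10173 counts, so its value is uncertain. Per kilobase of exon, Ccl17 went from 3.35 to 43.3 CPM per kb and Cx3cl1 from 9.50 to 35.6. Together the 2 ligands rose from 39.1 ± 2.03 CPM to 162 ± 10.1 CPM (SD, n = 3). Within 200 kb of the pair, 14 protein-coding genes are annotated and 11 were tested, the pair included. Of these, 4 were higher and 0 lower, beside 20.5% higher and 20.1% lower over all genes tested. The count of 4 takes in Cx3cl1 and Ccl17, around which the window was drawn. Its other genes moved little, Ciapin1 by a log2 fold change of 0.29 and Polr2c by 0.19.

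**Figure D3:**
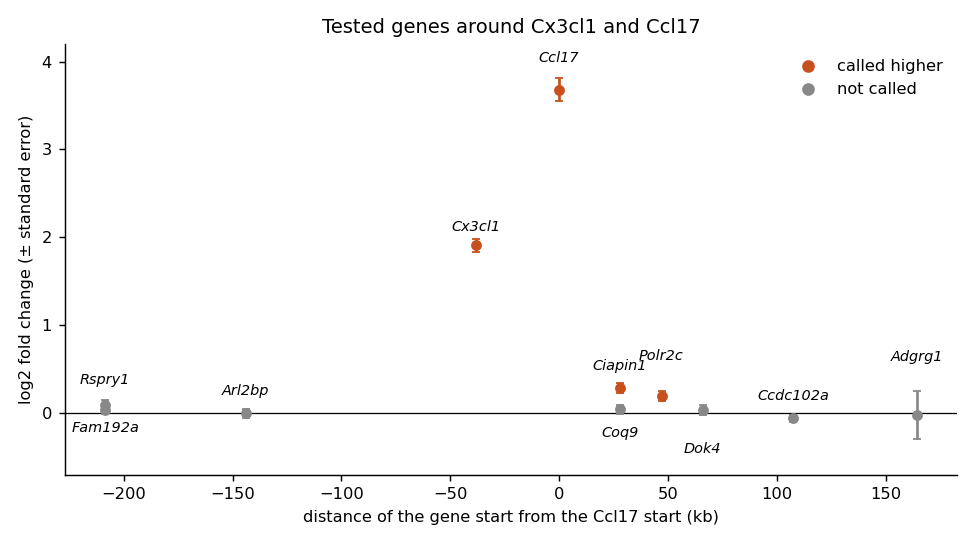
The log2 fold change with its standard error (edgeR, 3 libraries per group) of the 11 tested genes around the pair, against the distance of each gene's start from the Ccl17 start in kb. Cx3cl1 (1.91) and Ccl17 (3.68) stand above the other genes, which lie between -0.06 and 0.29.

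Cxcl12 (ENSMUSG00000061353), or SDF-1, a homeostatic ligand that holds and guides stem cells and leukocytes through Cxcr4, took more reads than any other member of the family in every library except Vb, where Cxcl5 took more, and it did not pass the test. Per kilobase of exon its level was 78.9 CPM per kb with vehicle and 47.9 with TGFβ. In CPM it was at 518, 510 and 908 CPM with vehicle and at 405, 280 and 491 CPM with TGFβ. Vc stood far above the other libraries, the groups did not overlap, and the log2 fold change was -0.72 (adjusted p = 0.0653, SE = 0.27). Cxcl12 passed without Tc (adjusted p = 0.0408), without Vc and Tc together (0.0239) and without the filter on low counts (0.0272). Its receptor Cxcr4 was at 14.7, 15.3 and 23.4 CPM with vehicle and at 14.0, 14.1 and 22.9 CPM with TGFβ. The groups overlapped, and the log2 fold change of -0.06 had a 95% interval of -0.62 to 0.49 (adjusted p = 0.855). Ackr3 (ENSMUSG00000044337), the atypical receptor that takes up Cxcl12, was the only receptor called lower, at 41.1, 36.1 and 47.7 CPM with vehicle and at 19.5, 18.3 and 36.0 CPM with TGFβ. Tc lay just below the lowest vehicle library, and the log2 fold change was -0.76 (adjusted p = 0.0395, SE = 0.24). This call was lost with DESeq2 (adjusted p = 0.0631) and without any one of Va, Vb, Vc, Ta or Tb (0.0535 to 0.134). Without Tc the log2 fold change was -1.15 (adjusted p = 0.000574, edgeR), and without Vc and Tc together it was -1.03 (0.000192). The ratio of Ackr3 to Cxcr4 in CPM was 2.04 to 2.79 with vehicle and 1.30 to 1.57 with TGFβ. CPM is not corrected for length. Per kilobase of exon, the mean of Ackr3 was above that of Cxcr4 with vehicle (12.4 and 9.85 CPM per kb). With TGFβ it was below that of Cxcr4 (7.35 and 9.41 CPM per kb).

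Among the other ligands, 2 that were well expressed did not pass. Cxcl16, a transmembrane ligand of Cxcr6, was at 68.9, 74.3 and 93.5 CPM with vehicle and at 63.4, 69.4 and 93.3 CPM with TGFβ, with a log2 fold change of -0.07 (95% interval -0.44 to 0.31, adjusted p = 0.774). Cxcl14 was at 8.70, 9.81 and 12.7 CPM and at 6.40, 7.23 and 12.2 CPM, with a log2 fold change of -0.27 (95% interval -0.84 to 0.30, adjusted p = 0.420), and it passed without Tc (adjusted p = 0.0294) and without Vc and Tc together (0.0252). Cxcl10, an interferon-induced ligand of Cxcr3, had a log2 fold change of -0.88 at 0.804 to 2.31 CPM (95% interval -1.62 to -0.14, adjusted p = 0.0605), and it passed without Va (0.0166), without Tb (0.0427) and without the filter (0.0454). It overlaps Art3 on the opposite strand. The log2 fold changes of Ccl25 and Ccl27a were 0.46 and 0.11 (adjusted p = 0.166 and 0.762). Both lie across more highly counted genes on the opposite strand, Elavl1 and Il11ra1, and 57.8% of the 75-base windows of Ccl27a also occur in transcripts of other genes, so the values of Ccl25 and Ccl27a are uncertain.

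The remaining atypical receptors did not pass. Ackr1, the Duffy receptor of venules, had a log2 fold change of -0.61 (95% interval -1.58 to 0.36, adjusted p = 0.285) at 1.58 to 5.33 CPM. Ackr4, which clears Ccl19, Ccl21 and Ccl25, had one of -1.07 (95% interval -2.03 to -0.12, adjusted p = 0.0721) at 0.631 to 3.03 CPM. Ackr4 was lowest in Vc and Tc, where most of the family was highest, and it passed with DESeq2 (adjusted p = 0.0367), without the filter (0.0430), without Vc (0.0156) and without Vc and Tc together (0.00926). Ackr1 overlaps Cadm3 on the same strand, and Ackr4 overlaps Acad11 on the opposite strand, so reads could be shared. Of the 7 receptors that passed the filter, 0 were called higher with edgeR, beside 20.5% higher over all genes tested. With only 7 receptors, a count of 0 cannot be set apart from that share. The number was also 0 at an unadjusted p under 0.05, with DESeq2 and with limma-voom.

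The 16 genes below the filter were 8 ligands and 8 receptors. Cxcr6, the receptor of Cxcl16, had 0 counts in every vehicle library and 12, 4 and 12 counts in Ta, Tb and Tc. This is at least 10.2-fold higher with TGFβ, against 3 counts over the vehicle group. The limit is 6.63-fold without Va, 6.87-fold without Vb and 6.85-fold without Vc, since fewer vehicle reads then stand behind the count of 0. Cxcr6 lies in the span of Fyco1 on the opposite strand, a gene with 10883 counts that was called lower (log2 fold change -0.18), and whether the counting used strand is not given in the sources used here. An exact permutation test (two-sided, on CPM) gave p = 0.1, which is the smallest it can give for 3 libraries against 3. Cxcl13, the B cell attractant, had 99 counts in Va, 1 in Vb and 17 in Vc, and 0, 0 and 4 with TGFβ, so its vehicle total rests on Va. Va also stood highest in the mesothelial markers, which summed to 77.0 CPM there and to 14.6 to 34.3 CPM in the other libraries. Cardiomyocyte markers (59.1 CPM, elsewhere 27.1 to 45.5 CPM) and dendritic cell markers (11.6 CPM, elsewhere 8.30 to 11.1 CPM) were highest in Va too. Among the other libraries, Ta had 34.3 CPM of mesothelial markers and 0 Cxcl13 counts, and Vc had 30.3 CPM and 17 counts. The part of other cells in the Cxcl13 counts was not tested. The lymphoid ligands Ccl19 and Ccl21a had 19 and 20 counts with vehicle and 3 and 21 with TGFβ, and their receptor Ccr7 had 6 and 2. At least 50.5% of the windows of Ccl19 and Ccl21a occur in other transcripts. The mucosal ligand Ccl28 had 19 and 19 counts and its receptor Ccr10 had 3 and 1, Cxcl9 had 9 and 3 and its receptor Cxcr3 had 9 and 8, Cxcl17 had 3 and 2, and Ackr2 had 17 and 27.

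The 30 ligands summed to 1987 ± 420 CPM in vehicle libraries and to 896 ± 188 CPM in TGFβ libraries (SD, n = 3 each), 2.22 times lower, and no TGFβ library reached a vehicle library. With vehicle, Cxcl12, Cxcl5, Ccl2 and Ccl7 held 85.5% to 87.9% of the ligand counts, and with TGFβ 64.0% to 70.8%. These sums and shares are not corrected for gene length. Per kilobase of exon with vehicle, Cxcl12 (78.9 CPM per kb) lay below Ccl2 (305), Cxcl5 (278) and Ccl7 (264). With TGFβ it (47.9) lay below Ccl2 (91.0) and Ccl7 (79.7) and above Cxcl5 (29.6). The share of Cxcl5 went from 26.3% to 6.09%, that of Cx3cl1 from 1.92% to 15.9%, that of Cxcl16 from 3.997% to 8.45% and that of Cxcl12 from 31.9% to 43.4%. A share can grow as the other ligands fall, as that of Cxcl16 did with a log2 fold change of -0.07. The 15 receptors summed to 68.5 ± 12.5 CPM and 49.8 ± 17.8 CPM (SD, n = 3), and these groups overlapped.

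**Figure D4:**
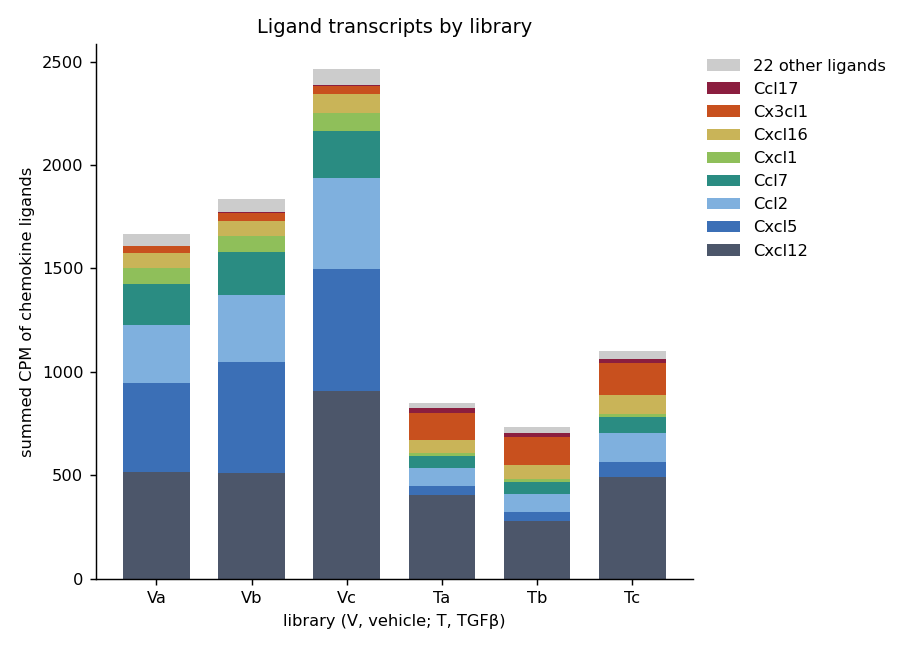
Stacked bars of the CPM of the 30 chemokine ligands in each library, with the 8 named ligands in colour and the 22 others in grey. CPM is not corrected for gene length. The vehicle bars reach 1665 to 2462 CPM and the TGFβ bars 735 to 1102 CPM. The blue Cxcl5 part shrinks and the orange Cx3cl1 part grows with TGFβ.

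The genes that act before and after chemokines were read from the same fit, from lists chosen with earlier results of these data known. Of 16 receptors for cytokines and Toll-like receptor ligands that induce chemokines, 13 were lower and 0 higher, beside 20.1% lower and 20.5% higher over all genes tested. On the log2 scale, Il1r1, the IL-1 receptor, changed by -1.60 (adjusted p = 3.66e-06), Il6st, the shared IL-6 family subunit, by -1.15 (3.15e-05) and Tlr4 by -0.65 (0.000150). Of 22 tested transcription factors and inhibitors of the NF-kB, IRF, STAT and C/EBP families, 18 were lower and 0 higher (20.1% and 20.5% of all genes), with a median log2 fold change of -0.49. The largest falls were in the NF-kB inhibitor Nfkbia (-1.16), which is itself an NF-kB target, in Cebpb (-1.06) and in Bcl3 (-1.05). The NF-kB subunit Rela moved by -0.19 and Rel by -0.09, the latter without passing (adjusted p = 0.418). Stat6, which carries the IL-4 signal, had -0.03 (adjusted p = 0.595). The counts of 0 higher in these lists were the same at an unadjusted p under 0.05, with DESeq2 and with limma-voom (0 in each).

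Of 9 genes that clip chemokines or govern the decay of their mRNA, 7 were lower and 1, Elavl1, higher (log2 fold change 0.28), beside 20.1% lower and 20.5% higher over all genes. The mRNA decay factors Zfp36 (-1.46), Zfp36l2 (-1.44) and Zc3h12a (-1.19) fell on the log2 scale, and so did Dpp4 (-1.42), the peptidase that trims the ends of several chemokines. Of 24 tested genes of chemokine receptor signalling, 6 were higher and 9 lower with edgeR, and 5 and 8 with DESeq2. The share called higher was near the 20.5% of all genes, and 20.1% of all genes were lower. Rgs4, a brake on G proteins, rose most (2.01, adjusted p = 8.51e-06), while Rgs16, another brake, had -1.14 (0.00430) and the leukocyte GTPase Rac2 -1.07 (0.0117). Of 7 tested chemokine-related genes whose names the rule does not take in, Cklf (0.48) and Cmtm7 (0.20) were higher, Ccrl2 (-0.73), Gpr182 (-0.72) and Cmtm3 (-0.52) were lower, and Mif and Pf4 did not pass.

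**Figure D5:**
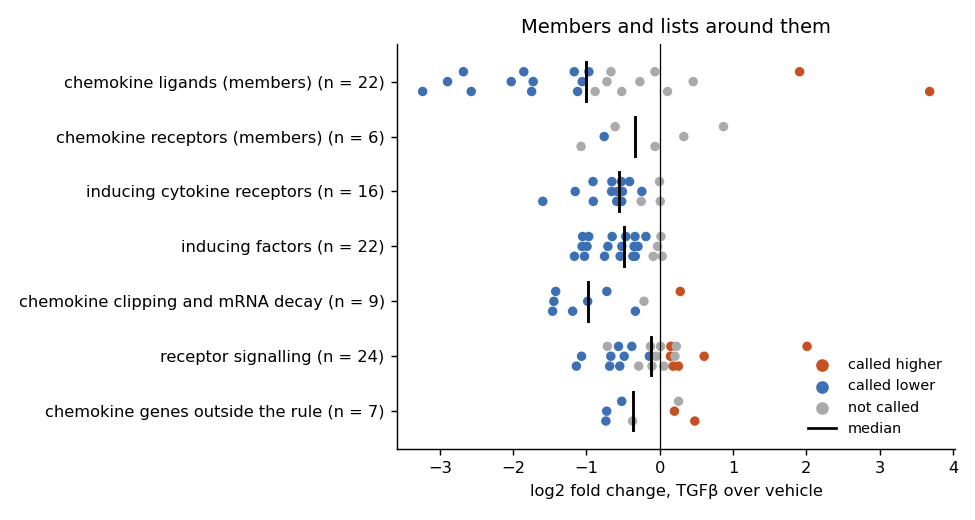
The log2 fold change of each tested gene (points), TGFβ over vehicle, for the 22 ligands, the receptors reported here and the 5 lists around them, with the median of each as a bar. In the lists of inducing cytokine receptors and inducing factors no gene is called higher, and the ligands span the widest range, from -3.23 to 3.68.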

How the data were processed

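The libraries were stranded and poly(A)-selected, read single-end on an Illumina HiSeq2500, aligned to mm10 and analysed with DESeq2 by the authors. The aligner, the counting program, its annotation and its strand setting are not given in the sources used here. The deposited table holds raw read counts per gene for 6 libraries. Its columns of the authors' own comparison (mean, fold change, p-values) were not used. ATAC-seq was not analysed here.

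Counts were tested on all genes with edgeR 4.0.16 in R 4.3.3 (TMM, filterByExpr on the group, quasi-likelihood test), with Benjamini-Hochberg adjustment over 14334 genes and a threshold of 0.05. The standard error is the log2 fold change over the square root of F. The filter asked for 0.344 CPM in at least 3 libraries. Intervals are at 95%, and a gene with 0 counts in a group was set at 3 counts for that whole group, which takes in counting error alone. The tested chemokine genes are named, apart from a result not reported here that the counts take in. Those past the threshold and those of a receptor-ligand pair have their library values printed, and genes below the filter have their counts printed. The genes and lists were chosen with earlier results of these data known. Alternatives were DESeq2 1.42.0, limma-voom (limma 3.58.1), other scalings, filters and thresholds, and each library left out. Leaving out Vc and Tc together was chosen after seeing the data. The count tests were run on simulated data with 200 changed genes. There edgeR called 78% of the changes of log2 1 and 97% of those of log2 2. Of the calls made, 7.41% were false with edgeR, 6.49% with limma-voom and 13% with DESeq2. The simulation changed 200 of 14316 genes, a far smaller share than the 40.7% called in the data. These rates therefore need not hold for the data. Coordinates are from GENCODE M21 (GRCm38), matched by identifier for all 45 genes, and exon lengths are the union of exons. Promoters are from RefSeq, and shared windows compare 75 bases between transcripts.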

Additional observations from a re-analysis of the deposited data

How the results depend on the processing

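The 10 calls of Ccl17, Cx3cl1, Cxcl5, Cxcl1, Cxcl2, Ccl2, Ccl7, Ccl9, Ccl11 and Ccl20 kept their direction and passed under every alternative fit in which they were tested (up to 13 each), and 5 (Ackr3, Ccl3, Ccl4, Ccl6 and Cxcl3) lost theirs in some. Of the 10 kept calls, those of Ccl11 and Cxcl2 were of genes that passed the filter through their vehicle libraries alone. Vehicle is the group where they were high, so their being kept is no added support. The number of chemokine genes called lower was 13 in the main fit, where 20.1% of all genes were lower. It was 8 at an adjusted p of 0.01, 12 with DESeq2 and with limma-voom, 17 without a filter and 15 without Vc and Tc together. No share of all genes was taken at 0.01, so that count of 8 has no background beside it. The shares of all genes in the other fits, given below, are in either direction and so are not matched to the counts of lower genes. With 1 library left out, the number called lower was 8 (without Ta) to 16 (without Tc). The number called higher was then 2 to 3, the third being Cxcr6. Cxcr6 had 0 counts with vehicle, so it passed the filter there only through its TGFβ libraries. The counts of 17 and 16 lower also take in a gene below the main filter. These were Cxcl13, whose vehicle total rests on Va, without a filter, and Ccl12 without Tc. Such added calls are no support for the main result. Without a filter, 45 chemokine genes were tested rather than 29. Over all genes, the share called in either direction moved too, from 40.7% to 35.1% with DESeq2 and 40.6% with limma-voom. This share was 22.5% without a filter and 37.2% without Vc and Tc together. Leaving out 1 library made it 30.8% (without Vb) to 37.6% (without Tc), and 32.1% without Ta. Among the genes reported here, direction turned only where a gene did not pass. With 1 library left out, the log2 fold change ran from -0.045 (without Vb) to 0.32 in Ccl27a. It ran from -0.26 to 0.075 (without Vc) in Cxcl16, which was also above 0 without Ta (0.045), and from -0.35 to 0.18 (without Vc) in Cxcr4, also above 0 without Ta (0.058) and Tb (0.052). The causes were not tested. No paired analysis was possible because the count columns carry no replicate number. At this depth a count of 0 in 1 library allows 0.0943 to 0.110 CPM, so genes below the filter give limits rather than differences.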
